A study of Drosophila melanogaster with 4 samples.

Results

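RNA polymerase II (Pol II) transcribes protein-coding genes, and chromatin immunoprecipitation followed by sequencing (ChIP-seq) recovers the DNA it sits on. The regions described here are those on chromosome 4, the smallest chromosome of Drosophila melanogaster. They were chosen by their chromosome name alone, with no measured value used: 76 of the 5763 regions listed for replicate 1, 150 of the 8872 listed for replicate 2, and 51 of the 4366 in the list of the whole series, which holds positions found in both replicates. Together the replicate lists put 226 of 14635 regions on chromosome 4. Both replicates came from unsorted embryos of 0 to 24 h. They were precipitated with CTD4H8, a mouse monoclonal antibody to the repetitive tail of the largest subunit of the enzyme. The labels number them as extractions 1 and 2, both as aliquot 1, and the inputs as extractions 3 and 4. The sample titles do not say whether these were independent chromatin preparations. The labels give no strain, genotype or treatment. The collection pools every stage of embryogenesis and all cell types, so a weak region in many cells and a strong one in few cells cannot be told apart. The input samples were not analysed here. Positions follow the r5.1 assembly of FlyBase. Without read counts in the lists, the depth of either library is unknown.

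Chromosome 4 is unusual among fly autosomes. Its assembled arm interleaves genes with repeats and transposon remnants, much of it is packaged with heterochromatin protein 1, and a dedicated protein, POF, coats it, yet many of its genes are transcribed. Among the genes it carries are eyeless (ey) and twin of eyeless (toy), which encode Pax6-type regulators of eye development, cubitus interruptus (ci), which encodes the transcription factor of Hedgehog signalling, pangolin (pan), which encodes that of Wnt signalling, and bent (bt), which encodes a giant muscle protein. Regions are given by position and none was assigned to a gene, since the available gene coordinates belong to Release 6 of the genome.

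The density of positions shared by both extractions did not differ between chromosome 4 and the large arms beyond counting error. Over the lengths used here, the list of each extraction alone was denser on chromosome 4. Each length ends at the last region end in any list, so sequence beyond it is left out. That raises values per Mb, and a given omission weighs more on a short chromosome. The assembled lengths were not used, so ratios may be too high, and the lower limit for replicate 1 was only 1.05. In the whole-series list chromosome 4 carried 41.4 regions per Mb (exact Poisson 95% interval 30.8 to 54.5), against 35.4 (34.4 to 36.5) over X, 2L, 2R, 3L and 3R together. The ratio was 1.17, and its exact 95% interval of 0.87 to 1.54 included 1. Taken against each arm in turn, the ratio ran from 0.99 against 2R to 1.33 against X, and all 5 intervals included 1. Leaving out replicate 2, the list of replicate 1 gave 61.7 per Mb on chromosome 4 and 46.5 on the large arms, a ratio of 1.33 (1.05 to 1.67). Leaving out replicate 1, the list of replicate 2 gave 122 and 70.8 per Mb, a ratio of 1.72 (1.45 to 2.02). In replicate 2 the ratio to every large arm was above 1 with an interval that left out 1, the lowest being 1.55 (1.30 to 1.83) against 2R. In replicate 1 the intervals against 2R (0.88 to 1.42) and 3L (0.96 to 1.54) included 1. These intervals, like all others given here, cover counting error only, treat regions as independent and are not adjusted for the number of comparisons.

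**Figure D1:**
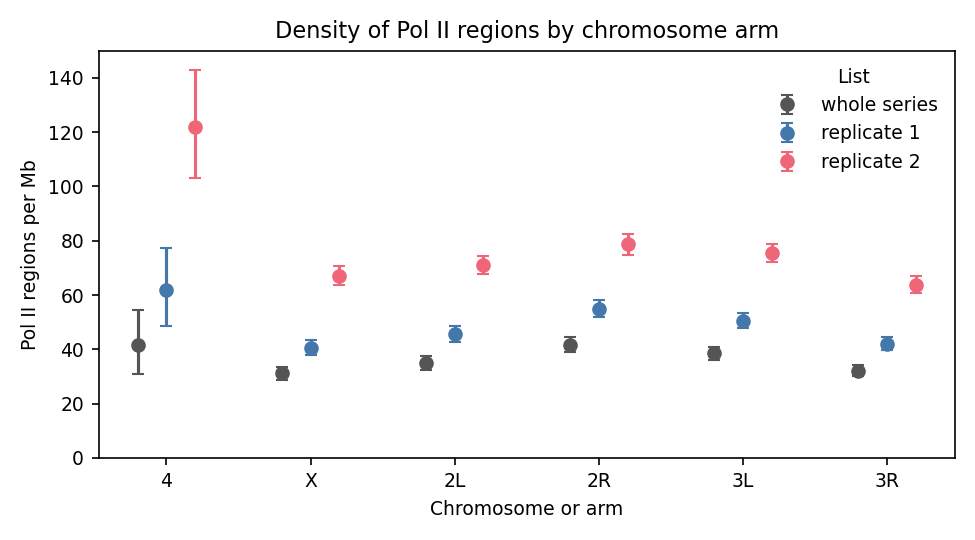
Pol II regions per Mb (vertical axis) on chromosome 4 and each large arm (horizontal axis) in the whole-series list and the list of each replicate; bars are exact Poisson 95% intervals. The replicate 2 point of chromosome 4, at 122 per Mb, stands above the 63.8 to 78.6 of the large arms, while its whole-series point, at 41.4, lies close to that of 2R at 41.7.

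The covered share of chromosome 4 was above that of the pooled large arms in all 3 lists, which are not independent of each other. Against 2R, the highest single arm, it was nearly equal in the whole-series list. Whole-series regions covered 21.9 kb of chromosome 4, or 1.78% of its length, next to 1.53% of the large arms. Regions of replicate 1 covered 1.45% of chromosome 4 and 1.02% of the large arms, and those of replicate 2 covered 2.68% and 2.09%. On 2R the shares were 1.77% in the whole-series list, 1.21% in replicate 1 and 2.32% in replicate 2. No interval was computed for covered shares. Each length ran to the last region end in any list, 1.23 Mb for chromosome 4, so these shares may be too high as well.

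Relative to genes, chromosome 4 held more regions than the large arms in all 3 lists. The Release 6 table places 80 protein-coding genes on chromosome 4 and 13842 on the large arms. That is 65.0 per Mb and 117 per Mb over the lengths used here, so chromosome 4 is the gene-poorer sequence. The whole-series list gave 0.64 regions per protein-coding gene on chromosome 4 and 0.30 on the large arms, a ratio of 2.10 (exact 95% interval 1.56 to 2.77). Among the large arms the value lay between 0.26 on 3R and 0.34 on 3L. Replicate 1 gave 0.95 regions per gene on chromosome 4 and 0.40 on the large arms, and replicate 2 gave 1.88 and 0.61. Arms of Release 6 include sequence that r5.1 keeps in separate heterochromatic scaffolds, so their gene counts are somewhat high for these arms. These are counts per chromosome and do not say that a region lies at a gene.

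Fewer of the chromosome 4 regions recurred in the other extraction. Over whole lists, 80.0% of replicate 1 regions and 49.9% of replicate 2 regions overlapped the other list by at least 1 bp. On chromosome 4, 53 of 76 replicate 1 regions did (69.7%, Wilson 95% interval 58.7% to 78.9%), against 80.5% (79.5% to 81.6%) on the large arms. The difference was -10.8 percentage points (Newcombe 95% interval -21.9 to -1.56). For replicate 2 it was 52 of 150 regions (34.7%, 27.5% to 42.6%) against 50.7% (49.6% to 51.8%), a difference of -16.0 points (-23.3 to -8.06). Each of the 5 large arms lay above chromosome 4 in both lists, from 80.0% to 81.4% in replicate 1 and from 46.8% on X to 53.4% on 2R in replicate 2, and every interval of these differences left out 0. On the mapped heterochromatic scaffolds the shares were 64.1% (66 of 103) in replicate 1 and 37.8% (62 of 164) in replicate 2. The intervals of the difference between chromosome 4 and these scaffolds included 0, at -8.36 to 18.9 points in replicate 1 and -13.6 to 7.47 points in replicate 2.

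Region width moved with this result. Weighting the large arms to the widths found on chromosome 4 lowered their share to 77.1% in replicate 1 and 39.5% in replicate 2. Both values lay inside the Wilson intervals of chromosome 4, and the remaining differences were -7.36 and -4.85 points. With regions of at least 100 bp the difference was -0.26 points in replicate 1, with an interval of -12.2 to 4.50, and -13.4 points in replicate 2, with an interval of -23.3 to -3.26. An overlap of at least 50% of both regions gave 43.4% of replicate 1 regions on chromosome 4 and 49.2% on the large arms, a difference of -5.80 points with an interval of -16.4 to 5.47. Under the same rule the replicate 2 shares were 22% and 32.3%. The replicate 2 list was also cut, on each chromosome, to as many of its highest-scoring regions as replicate 1 had. On chromosome 4, 50% of replicate 1 regions and 48.7% of replicate 2 regions were then shared. On the large arms it was 64.5% and 61.7%. The differences were -14.5 points (-25.5 to -3.43) and -13.0 points (-24 to -1.92). This cut was deeper on chromosome 4, to 76 of 150 regions, than on the large arms, to 5502 of 8387. Chromosome 4 and the large arms were thus not cut alike, and these differences cannot separate sharing from the depth of the cut.

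Within width classes, 2 of 10 comparisons (5 classes in each replicate) had an interval that left out 0. Replicate 1 regions of 50 to under 100 bp were shared in 10 of 24 cases on chromosome 4 (41.7%) and in 64.6% on the large arms, a difference of -23.0 points (-40.4 to -3.20). Replicate 2 regions of 200 to under 400 bp were shared in 11 of 27 cases (40.7%) and in 68.2%, a difference of -27.4 points (-43.8 to -8.81). The widest class, 400 bp or more, held 11 chromosome 4 regions in replicate 1, all shared, and 21 in replicate 2, of which 16 were shared (76.2%, next to 75.7% on the large arms). Among regions under 50 bp, 3 of 28 were shared in replicate 2, a share of 10.7% next to 7.20% on the large arms.

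**Figure D2:**
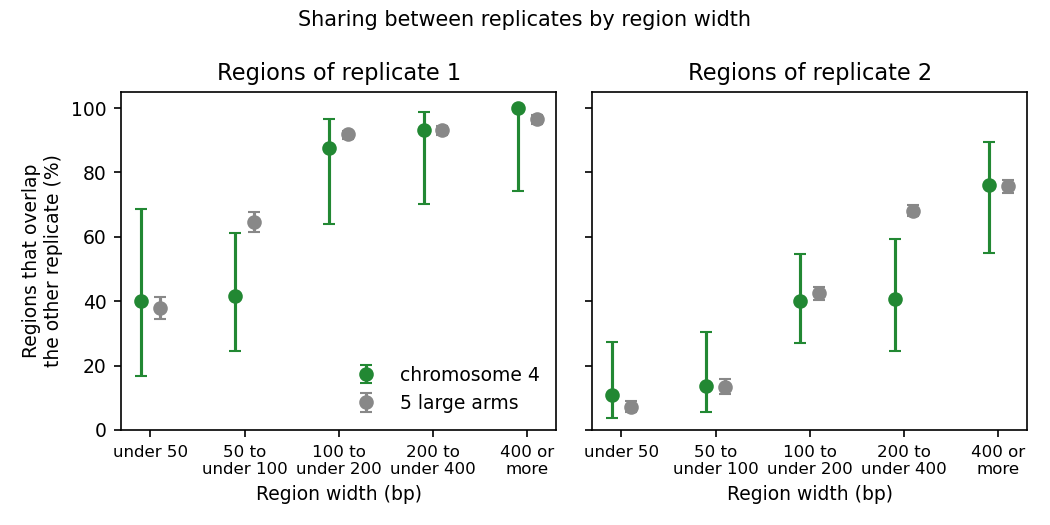
Percentage of regions that overlap the other replicate (vertical axis) by region width in bp (horizontal axis), for chromosome 4 and the 5 large arms, with Wilson 95% intervals; left, regions of replicate 1, right, regions of replicate 2. The points separate most at 50 to under 100 bp in replicate 1 (41.7% and 64.6%) and at 200 to under 400 bp in replicate 2 (40.7% and 68.2%).

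Regions without a counterpart were denser on chromosome 4 than on the large arms in both extractions. Matched regions of replicate 2 stood at 42.2 per Mb on chromosome 4 and 35.9 on the large arms, a ratio of 1.18 (0.88 to 1.55). Its unmatched regions stood at 79.6 per Mb (98 regions) and 34.9, a ratio of 2.28 (1.85 to 2.79). In replicate 1 the matched ratio was 1.15 (0.86 to 1.51), and the 23 unmatched regions gave 18.7 and 9.04 per Mb, a ratio of 2.07 (1.30 to 3.12). Each large arm had between 31.3 and 36.6 unmatched replicate 2 regions per Mb. Replicate 2 listed 1.97 times as many regions as replicate 1 on chromosome 4, and 1.43 to 1.65 times as many on the large arms.

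Unmatched regions on chromosome 4 were narrow in both extractions. The 23 of replicate 1 had a median width of 65 bp (quartiles 50.5 and 82 bp) and the 98 of replicate 2 had 98 bp (49.3 and 176 bp), next to 171 and 205 bp for the matched ones. The large arms showed the same order: unmatched regions had medians of 54 bp in replicate 1 and 129 bp in replicate 2, and the matched medians were 174 and 272 bp. The widest unmatched region of chromosome 4 spanned 211 bp in replicate 1 and 497 bp in replicate 2. Wide regions meet the rule of 1 bp of overlap more easily, so width and matching are not independent. In replicate 1 the unmatched regions did not have the lower scores. Their median score was 2.58, above the 2.31 of the 53 matched regions, whereas on the large arms unmatched regions had the lower median, 2.20 next to 2.57. Of the 23, 15 scored above the median of chromosome 4 (65.2%), and on the large arms 31.4% of unmatched regions scored above the median of their own arm, a difference of 33.8 points (13.3 to 50). In replicate 2 unmatched regions scored lower than matched ones on chromosome 4 too (2.54 and 3.03), and the corresponding difference of 7.72 points had an interval of -1.52 to 17.7. The score is the authors' value for each region, with no unit given, and its scale may differ between chromosomes, so scores are compared here within a chromosome.

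Some scores recurred exactly, mostly in narrow regions. The 76 replicate 1 regions had 67 different scores and the 150 of replicate 2 had 125. A score of 2.24 recurred 5 times in replicate 1, in regions of 1 to 81 bp, of which 3 were shared, and 2.59 recurred 8 times in replicate 2, in regions of 14 to 108 bp, of which 1 was shared. In replicate 1 the 34 regions under 100 bp had a median score of 2.49 and the 42 wider ones 2.46. On the large arms these medians were 2.20 and 2.66.

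Narrow regions made up a larger share of the regions on chromosome 4 than of those on the large arms in each replicate list. This was not particular to chromosome 4. Median widths on the mapped heterochromatic scaffolds were close to those of chromosome 4, at 115 bp in replicate 1 and 129.5 bp in replicate 2. In replicate 2 the median width was 128.5 bp on chromosome 4 (quartiles 69 and 271 bp) and 207 bp on the large arms (113 and 370 bp), where the medians of single arms ran from 200.5 to 221 bp. Regions under 100 bp made up 38.0% (57 of 150) and 21.4%, a difference of 16.6 points (9.22 to 24.7). In replicate 1 the medians were 116.5 and 153 bp, and 44.7% (34 of 76) and 30.5% of regions were under 100 bp, a difference of 14.2 points (3.49 to 25.4). The shift was present on both sides of the overlap in replicate 2: 51% of unmatched chromosome 4 regions and 13.5% of matched ones were under 100 bp, next to 38.9% and 4.26% on the large arms. In the whole-series list, whose regions span the outermost ends of those they join, the medians were 282 and 291 bp, and 2 of 51 regions were under 100 bp (a difference of 2.49 points, -0.38 to 11.8). Regions of at least 1000 bp were 5 of 51 there (9.80%) and 7.17% on the large arms, a difference of 2.63 points whose interval of -2.97 to 13.8 included 0. Leaving out replicate 1 turned the sign of that difference, to -0.73 points in the list of replicate 2.

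**Figure D3:**
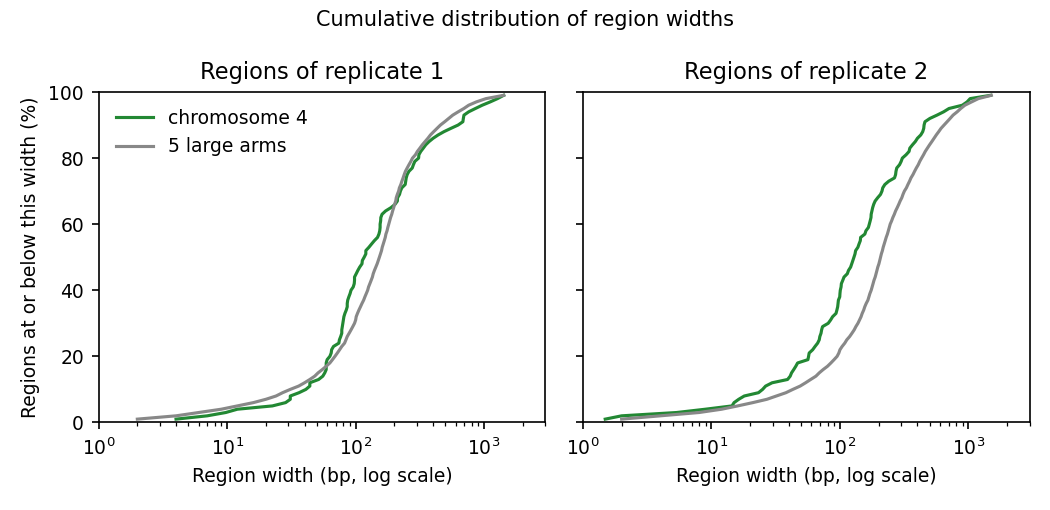
Cumulative percentage of regions (vertical axis) against region width in bp on a log scale (horizontal axis), on chromosome 4 and the 5 large arms; left, replicate 1, right, replicate 2. In replicate 2 the chromosome 4 curve lies to the left through the middle of the range, with a median of 128.5 bp next to 207 bp.

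Scores of the 51 shared regions ranged from 1.71 to 8.06 in the whole-series list, with 32 below 3 and 10 at 4 or above. Replicate 2 gave the higher score in 39 of them (76.5%) and replicate 1 in 12. On the large arms 64.3% were higher in replicate 2, and the difference of 12.1 points had an interval of -1.19 to 21.8. On a log2 scale, replicate 2 exceeded replicate 1 by a median of 0.35 on chromosome 4 (SD 0.55 over 51 regions), with extremes of -0.87 and 1.60. The median was 0.19 over the large arms, and 0.12 to 0.27 on single arms. The score ranks of the extractions were loosely related. Across the 51 regions Spearman's rho was 0.36 and Pearson's r of log2 scores was 0.57, next to 0.56 for both measures over the large arms. These describe regions of the same pair of libraries, which are not independent replicates. For region width rho was 0.66.

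**Figure D4:**
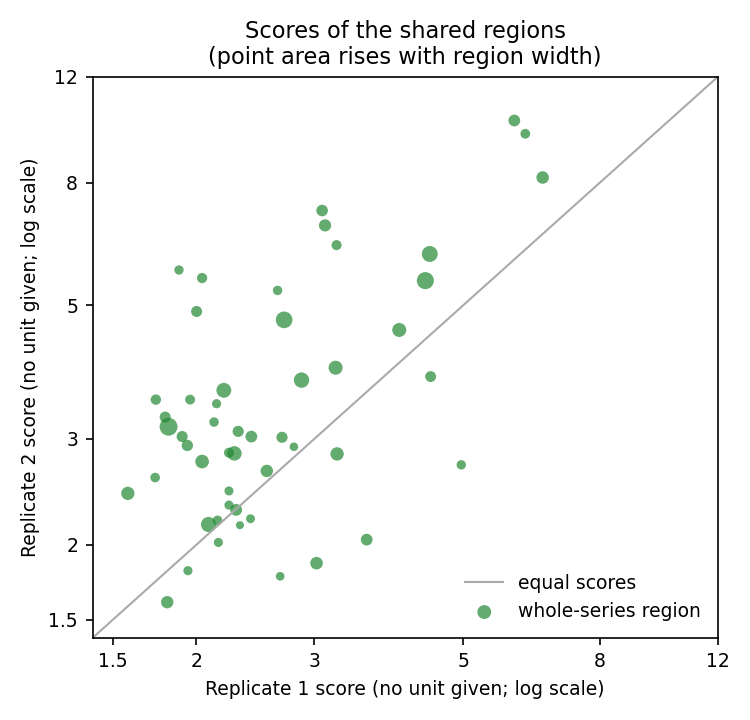
Score of each of the 51 shared chromosome 4 regions in replicate 1 (horizontal axis) and replicate 2 (vertical axis), both on log scales with no unit given; point area rises with region width and the line marks equal scores. Of the points 39 lie above the line, and 3 stand apart at the upper right, with scores of 5.96 to 6.57 in replicate 1 and 8.16 to 10.2 in replicate 2.

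Among the 51 shared regions, the 3 highest were the same in both extractions, in a different order. The region at 1052275 to 1052623, 349 bp wide, scored 5.96 in replicate 1 and 10.2 in replicate 2 (mean 8.06 ± 2.96, SD, n = 2). At 716594 to 716758, a region of 165 bp scored 6.19 and 9.65 (7.92 ± 2.44). The region at 522149 to 522599, 451 bp wide, scored 6.57 and 8.16 (7.37 ± 1.12). Each of these 3 lay above every other shared chromosome 4 region in both lists, and in replicate 1 an unmatched region scored 6.26, above 2 of them. The fourth region by mean, at 86722 to 87901, scored 4.46 and 6.09 (5.27 ± 1.15).

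Means of the remaining 6 of the 10 highest-scoring regions ran from 5.14 down to 4.14. Regions at 854746 to 855076 (3.08 in replicate 1 and 7.19 in replicate 2, mean 5.14 ± 2.91) and at 827635 to 828042 (3.11 and 6.79, 4.95 ± 2.60) rested on replicate 2. So did the one at 744944 to 745134, with 3.24 and 6.30 (4.77 ± 2.17). Extractions were closer at 1053503 to 1055066 (4.39 and 5.50, 4.95 ± 0.78), at 590635 to 591341 (4.02 and 4.55, 4.28 ± 0.38) and at 797201 to 797460 (4.47 and 3.81, 4.14 ± 0.47). Ranked among the 51 shared regions only, 7 of the 10 were also in the 10 highest by replicate 1 score and 8 by replicate 2 score. The means were made from these same scores, so part of this agreement is built in. These SDs (n = 2 for each) include the general shift of replicate 2 above replicate 1, so they are a rough guide to the order. Next to them, neighbours within the first 3 places, and from the fourth place down, do not differ beyond their spread.

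The 8 largest disagreements by log2 ratio were all higher in replicate 2; the 3 regions given here were picked after their values were seen. At 328676 to 328813 replicate 1 scored 1.88 and replicate 2 scored 5.73, and at 202366 to 202567 the scores were 2.04 and 5.55. The largest difference in the other direction was at 480139 to 480280, with 4.97 in replicate 1 and 2.72 in replicate 2 (log2 ratio -0.87).

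The median overlap between the replicate regions of a shared position was similar on chromosome 4 and the large arms. In 48 of the 51, exactly 1 region per replicate was joined (94.1%, next to 93.9% on the large arms). Between those pairs the starts differed by a median of 30 bp and the ends by 24.5 bp, next to 36 and 35 bp on the large arms. The common part was a median of 64.4% of the joint span (quartiles 41.1% and 88.9%), next to 64.6% on the large arms. For 10 chromosome 4 regions the common part was above 90%, and for 3 it was below 10%. The smallest overlap was at 413920 to 414048, where 1.55% of the span was common, so that its place in the shared list rests on a few bases. Replicate 2 gave the wider region in 37 of the 48 pairs (77.1%) and replicate 1 in 11, next to 90.6% wider in replicate 2 on the large arms.

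The 5 widest shared regions were at least 1023 bp wide and lay in separate places. The widest, at 527471 to 529357, spanned 1887 bp and had low scores, 1.82 in replicate 1 and 3.14 in replicate 2 (2.48 ± 0.94, SD, n = 2). Its replicate regions differed in extent, with starts 637 bp and ends 551 bp apart. At 1053503 to 1055066 the region of 1564 bp was nearly the same in both extractions, with 98.3% of the span in common. The region of 1422 bp at 676854 to 678275 (2.70 and 4.73, 3.72 ± 1.43) had 96.8% in common, the one of 1180 bp at 86722 to 87901 had 83.1%, and the one of 1023 bp at 577873 to 578895 (2.87 and 3.76, 3.31 ± 0.63) had 94.4%. Width and score were weakly related over the 51 regions (rho = 0.25).

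Most shared regions stood alone, with 37 of the 51 at least 1000 bp from any other. Neighbours were separated by a median of 11.4 kb (quartiles 2.35 and 32.0 kb), next to 12.8 kb on the large arms. Less than 1000 bp separated 16% of neighbours on chromosome 4 and 15.3% on the large arms, a difference of 0.73 points (-7.02 to 13.3). This difference changed sign when either replicate was left out, to -2.70 points in the list of replicate 2 and -6.78 points in that of replicate 1. Such short gaps made 6 runs holding 14 regions. Runs of 3 lay at 1050740 to 1055066, where 2621 bp of a span of 4327 bp was covered, and at 675806 to 678777, where 1869 bp of 2972 bp was covered. The first of these runs held the highest-scoring and the second-widest region of the chromosome. A looser limit of 5000 bp gave 8 runs holding 25 regions, the longest of which had 5 regions over 9992 bp (671278 to 681269).

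Along the chromosome, in windows of 100 kb, the most shared regions were in windows 5, 6, 7 and 9, with 6 or 7 each. The 12 full windows of 100 kb held 1 to 7 whole-series regions, with a median of 4, 2 to 12 regions of replicate 1 and 8 to 19 of replicate 2. None of these full windows was empty in any of the lists. Window 13, partial because the length used ends at the last listed region, held no whole-series region. Of the 1182 windows of the large arms 11.7% held none, and 12 windows are too few to tell these shares apart. Replicate 1 was fullest in window 6 with 12 regions, and replicate 2 in window 7 with 19. The lists differed most in window 4, where replicate 1 held 3 regions and replicate 2 held 15. Over the 12 windows Spearman's rho between replicates was 0.63, as a description of neighbouring windows of 1 chromosome. The first Mb of chromosome 4 held 45 whole-series regions, and 21 of 116 Mb windows on the large arms held more. By replicate 1 it held 65, and 8 windows held more. By replicate 2 it held 130, above the 112 of the fullest arm window.

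**Figure D5:**
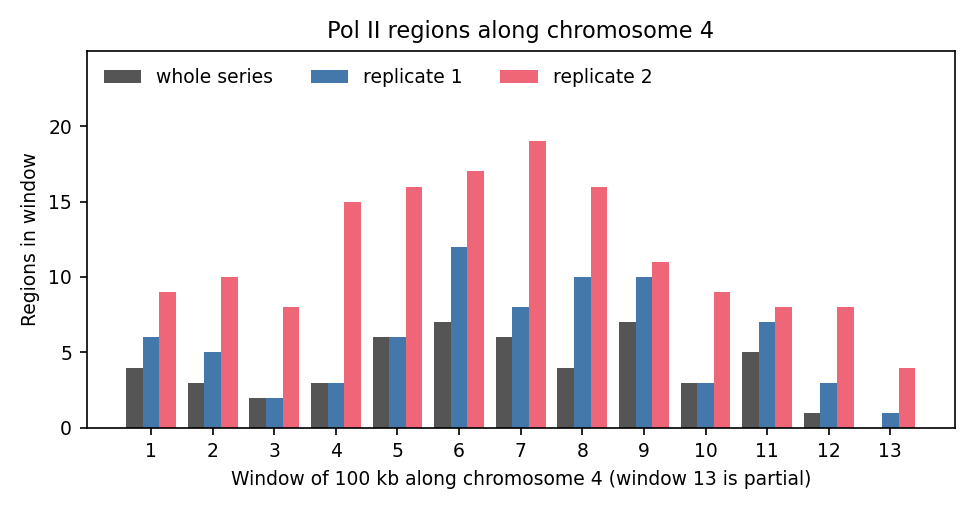
Number of regions (vertical axis) in successive windows of 100 kb along chromosome 4 (horizontal axis, by window number) in the whole-series list and the list of each replicate. Replicate 2 rises to between 15 and 19 regions in windows 4 to 8, whereas replicate 1 holds 3 and 6 in windows 4 and 5 and reaches 12 in window 6.

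Stretches between shared regions can hold only unmatched regions, of which chromosome 4 had 23 in replicate 1 and 98 in replicate 2. Larger numbers for replicate 2 in such stretches follow from these totals. The 5 longest gaps of the whole-series list added up to 409 kb, or 33.2% of the length used here. They held 4 of the 23 unmatched regions of replicate 1 and 35 of the 98 of replicate 2. The longest, from 221367 to 328675 (107 kb), had none from replicate 1 and 3 from replicate 2. From 334529 to 413919 (79.4 kb) the numbers were 0 and 13, from 591342 to 671277 (79.9 kb) 1 and 8, from 978130 to 1050739 (72.6 kb) 0 and 5, and from 1087100 to 1156795 (69.7 kb) 3 and 6. An unmatched replicate 2 region on chromosome 4 lay a median of 4.47 kb from the nearest replicate 1 region, next to 3.18 kb on the large arms. Within 1 kb of a replicate 1 region lay 23 of the 98 (23.5%, Wilson 95% interval 16.2% to 32.8%), next to 29.2% (27.9% to 30.7%) on the large arms. For the 23 unmatched regions of replicate 1 the median distance to a replicate 2 region was 2.41 kb, next to 0.82 kb on the large arms. Of these 23, 8 lay within 1 kb (34.8%, 18.8% to 55.1%), next to 54.1% (51.1% to 57.0%) on the large arms.

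At the ends of the listed stretch, the first shared region was at 63584 to 63934, with scores of 3.59 and 2.04 (2.81 ± 1.10, SD, n = 2). The last was at 1156796 to 1156917, with 2.24 and 2.46 (2.35 ± 0.16). Replicate 2 had 1 region before the first, starting at 60712, and 5 after the last. Replicate 1 had 1 region after the last, at 1230299 to 1230336, which was also its highest-scoring unmatched region, with a score of 6.26 over 38 bp. Replicate 2 placed a region 313 bp from it, at 1230649 to 1230769, with a score of 3.14, and so both extractions had a region there without an overlap. How much of this sequence 36 nt reads can reach was not measured, so a stretch without regions is not shown to lack Pol II.

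The strongest region found in replicate 1 alone was the one at 1230299 to 1230336. Its score of 6.26 was second in that list, after the 6.57 of the shared region at 522149. The next strongest were at 881654 to 881864 (score 3.35), 1139949 to 1140011 (3.20), 777019 to 777101 (3.15) and 781746 to 781823 (2.85). The first of these 4 next strongest was also the widest unmatched region of replicate 1, 211 bp, and it lay 23 bp from a replicate 2 region. Its 4 next widest, of 155 down to 87 bp, were at 783854 to 784008, 1095117 to 1095236, 135342 to 135433 and 562337 to 562423, and they scored 1.90 to 2.70. In replicate 2 the strongest were at 408790 to 409002 (6.16), 628105 to 628376 (5.06), 768494 to 768705 (4.74), 887571 to 887714 (4.70) and 946729 to 946784 (4.60). The first of them lies in the gap of 79.4 kb that held 13 replicate 2 regions and none of replicate 1, and it lay 5016 bp from the nearest replicate 1 region. The second lay 15769 bp away. The widest unmatched replicate 2 regions were at 589287 to 589783 (497 bp), 134548 to 135007 (460 bp), 684660 to 685116 (457 bp), 1145085 to 1145534 (450 bp) and 701258 to 701670 (413 bp), with scores of 2.08 to 2.56. The region at 134548 lay 335 bp from an unmatched replicate 1 region, at 135342 to 135433.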

How the data were processed

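Per the labels' protocols, libraries had a size selection of 150 to 200 bp and were sequenced single-end. The deposited region lists use FlyBase r5.1 and name PeakSeq as their source, per the file headers. The aligner, filters, control and threshold are not stated there or in the labels. For every region the authors deposited a position and a score without unit. Replicate numbers follow accession order.

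Members are all rows of chromosome 4. They, the comparisons and the rule for named regions were chosen with earlier results of these data known. That rule takes the 10 highest-scoring and 5 widest whole-series regions, the first and the last, and the 5 highest-scoring and 5 widest unmatched regions of each replicate. Width classes and weights, lists of equal length, shares under 100 bp, scores of unmatched regions, windows, long gaps, the 5000 bp limit, scaffolds and matched densities were added after the data were seen.

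Overlap was at least 1 bp. Ratios of counts per length have exact conditional intervals (Clopper-Pearson), and differences of shares have Newcombe intervals, all at 95%; a difference passed when its interval left out 1 or 0. With 1 list per extraction, no test over samples was possible, and intervals carry no spread between extractions. Overlap, gap and interval routines were tested on simulated data. Scripts ran under Python 3.11.15 with SciPy 1.17.1, pandas 2.3.3, NumPy 2.4.6 and Matplotlib 3.10.9. The input samples and sequences of regions were not analysed here.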

Additional observations from a re-analysis of the deposited data

How the results depend on the processing

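The density ratio of chromosome 4 over the large arms, 1.17, passed the threshold in the list of either replicate (1.33 to 1.72), per protein-coding gene (2.10) and for unmatched replicate 2 regions (2.28). It fell below 1 against 2R (0.99) and in the upper 50% by score (0.89), neither past the threshold. That score filter assumes 1 score scale for all chromosomes. Ratios per length rest on lengths that end at the last listed region. Assembled lengths were not tried. The lower share of replicate 1 regions recovered did not pass with an overlap of at least 50% (-5.80 points), with regions of at least 100 bp (-0.26) or with large arms weighted to the widths of chromosome 4 (-7.36), and that of replicate 2 regions did not pass with the last of these (-4.85). Both shares stayed lower and past the threshold in the upper 50% by score within chromosomes and with equal list lengths. The latter setting cut replicate 2 more deeply on chromosome 4 than on the large arms. The excess of regions under 100 bp did not pass in the whole-series list (2.49 points) and was 14.2 points without replicate 2. Some differences that never passed changed sign. For regions of at least 1000 bp the lists of the replicates gave -0.73 to 1.78 points, negative in replicate 2 only, and a limit of 500 bp gave -1.56. For gaps under 1000 bp both lists were negative (-6.78 to -2.70 points), as was a limit of 500 bp (-1.57). The cause of these changes was not tested. Of 46 alternatives, 30 left the result as it was, 5 weakened it, 4 strengthened it and 7 turned its sign. The 30 include results that never passed, and comparisons with single arms that reuse the same chromosome 4 counts. They are not independent checks. No paired analysis was possible because the input samples have no list here. Sharing has no value without either replicate. Unknown depth limits how the unequal list lengths can be read.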
